A study of Mus musculus with 10 samples.

Results

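Gene expression was compared between mouse embryonic fibroblasts without their own G9a that had received FLAG-tagged wild-type G9a (WT) and the same kind of cells that had received an empty vector (delta). The comparison uses 4 of the 10 arrays of the series, 2 titled WT and 2 titled delta, chosen by their titles and not by any measured value. The other 6 arrays, 2 in each group, are of cells given FLAG-G9a with the substitution K165A, of cells given FLAG-G9a with the substitution H1093K, which the labels call a catalytic mutant, and of cells titled only deleted. All cells of the 4 reconstituted groups share the loss of G9a, and the added protein and the making of each population cannot be told apart. The labels give no strain, embryo age, vector name, promoter or number of clones. Embryonic fibroblasts are connective tissue cells grown from mouse embryos, and total RNA of whole cultures was measured, so that fewer cells of a kind and less RNA per cell cannot be told apart.

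G9a, encoded by Ehmt2, transfers methyl groups to lysine 9 of histone H3, mostly to the mono- and dimethylated state and mostly together with its partner GLP. That mark is found at silent genes in euchromatin, and loss of G9a is known to release genes from silencing in embryonic cells. G9a also methylates other proteins, itself included, and it is known as a coactivator at some promoters.

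Values are signal intensities of Affymetrix probe sets, used as log2(signal + 16), and a probe set is said to have risen or fallen where limma's adjusted p (Benjamini-Hochberg) for WT minus delta lay under 0.05. A fold is 2 to the power of that difference, so it understates the change of dim genes, and none is given where either group averaged under 16. For a single gene, 2 WT and 2 delta arrays allow a smallest exact permutation p (two-sided) of 0.333, so the p-values come from the fit over all probe sets. No label tells whether paired arrays stem from separate cultures, and the p-values then measure only the spread between these arrays. Median signals of the 10 arrays ranged between 181.1 and 199.6, and the arrays of a pair correlated at Pearson's r of 0.989 in WT and 0.983 in delta across probe sets, which are not independent. Markers of the labelled cell type were bright: Col1a1, the main chain of type I collagen, had 9418 and 7734 in WT, against 7499 and 9693 in delta, and Vim, the intermediate filament of mesenchymal cells, had 15818 and 11719 in WT, against 10345 and 11662 in delta. Neither Col1a1 nor Vim passed the test.

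Ehmt2, the gene put back, had 676 and 620 in WT, against 473 and 415 in delta, on its brighter probe set. Both WT arrays lay above both delta arrays, and the difference was 0.53 on the log2 scale (95% interval 0.33 to 0.74, adjusted p = 0.0046). A second, dim probe set of Ehmt2 had 40.9 and 106 in WT, against 7.13 and 36.5 in delta, and did not pass (adjusted p = 0.148). The labels do not tell whether either probe set lies in the deleted stretch of the gene, and the signal left in delta therefore does not check the label. The H1093K arrays had 461 and 494 and the K165A arrays 704 and 725 on the brighter probe set of Ehmt2. The arrays titled deleted had the most Ehmt2 signal of the series, 1678 and 1750, which goes against that title, and here they serve only to estimate the spread between paired arrays.

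Wild-type G9a came with rises about as numerous as falls. Of 13576 probe sets tested, 1664 passed (12.3%), of which 757 were higher in WT (5.58%) and 907 lower (6.68%). In genes, each taken by its brightest probe set, 1051 of 7761 passed (13.5%), 454 higher (5.85%) and 597 lower (7.69%), and the median difference over all genes was -0.02. Each list below is to be read beside these shares. The lists were chosen with earlier results of these data known, so that a share above these is no test of a list. The median size of a called difference was 0.56 on the log2 scale, and 676 of the 1664 were under 0.5. More than 2-fold rises numbered 176 (1.3% of the probe sets tested) and falls of that size 142 (1.05%), while 36 rose and 30 fell by more than 4-fold. Among 3107 genes with at least 2 tested probe sets, 608 had one that passed and 164 had all of them pass, and in 0 genes did probe sets pass in opposite directions. Both WT arrays lay beyond both delta arrays, above or below, for 7287 probe sets (53.7%), so that this alone marks nothing out.

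The count depends on the number of arrays. With WT 1, WT 2, delta 1 or delta 2 left out in turn, 831, 868, 968 and 923 probe sets passed. In genes, 253, 217, 279 and 285 were then higher in WT and 279, 347, 320 and 304 lower. With the replicate number as a block, 2863 probe sets passed, 1394 higher and 1469 lower, or 798 and 957 in genes. The differences within the WT pair and the delta pair correlated at 0.229, the low end over all pairs of groups. No label tells whether arrays numbered alike were handled together. The same order of left-out arrays, WT 1, WT 2, delta 1, delta 2, is kept for every list below. A gene that passed in all 4 of these reduced fits is called stable to them. Of the 39 genes named under the rule for the greatest differences, Ehmt2 included, all 39 were.

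**Figure D1:**
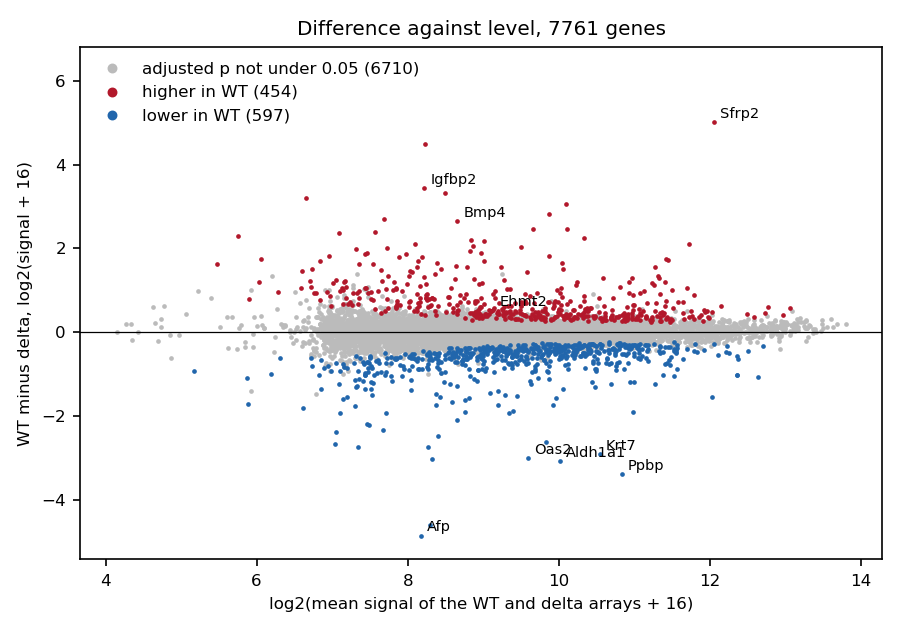
Difference between WT and delta (vertical axis, log2(signal + 16)) against the mean level of the 4 arrays (horizontal axis, same scale) for 7761 genes. The 454 genes higher in WT are red, the 597 lower in WT are blue and the 6710 that did not pass are grey, with Sfrp2 at 5.01 and Afp at -4.84 at the ends.

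The greatest rise belonged to Sfrp2, which encodes a secreted Frizzled-related protein that binds Wnt ligands. Sfrp2 had 8822 and 7499 in WT, against 484 and 112 in delta. It was 32.2-fold higher in WT, a difference of 5.01 (95% interval 3.98 to 6.04, adjusted p = 9.08e-05), and the delta arrays differed from each other more than the WT arrays did. Igfbp2, a carrier protein for insulin-like growth factors, had 546 and 514 in WT, against 41.9 and 27.8 in delta, 10.8-fold higher (adjusted p = 4.12e-06). Fbn2, a fibrillin of embryonic microfibrils, had 632 and 647 in WT, against 57.9 and 42.3 in delta, 9.98-fold higher. Nrep, a small protein first described in regenerating nerve, had 2060 and 1818 in WT, against 266 and 181 in delta, 8.29-fold higher. The WT arrays lay above the median signal of the array for all 4 genes, and the pairs did not overlap.

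The transcription factors among the 15 rises with a fold were Osr2, Eomes, Mef2c, Tox and Zfp503. Osr2, a zinc finger factor of palate and limb mesenchyme, had 1605 and 1648 in WT, against 195 and 240 in delta, 7.06-fold higher. Eomes, a T-box factor of mesoderm and trophoblast, had 1776 and 1919 in WT, against 306 and 339 in delta, 5.51-fold higher (95% interval of the log2 difference 2.11 to 2.81). Mef2c, a MADS-box factor of muscle and heart, had 294 and 310 in WT, against 46.9 and 42.8 in delta, 5.22-fold higher. The paired arrays lay close together for all 3 factors. Tox, an HMG-box factor known from T cells, had 190 and 237 in WT, against 23.7 and 32.1 in delta, and Zfp503, a zinc finger repressor of limb and brain, had 407 and 451 in WT, against 92.9 and 80.8 in delta.

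The rest of the 15 rises with a fold were secreted, matrix and membrane genes. Bmp4, a bone morphogenetic protein, had 623 and 739 in WT, against 82.2 and 107 in delta, 6.32-fold higher (adjusted p = 3.95e-06). Shisa2, an inhibitor of Wnt and FGF receptor maturation, had 1347 and 1361 in WT, against 266 and 200 in delta, 5.55-fold higher. Cldn11, a tight junction claudin of myelin and Sertoli cells, had 302 and 378 in WT, against 50.8 and 27.9 in delta. Ccn3, a matricellular protein, was 4.71-fold higher, Col6a3, a chain of collagen VI, 4.62-fold, and Kcnk2, a two-pore potassium channel, 4.52-fold.

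A further 5 genes of great rise were so dim in delta that no fold is given. Angpt1, the ligand of the endothelial receptor Tie2, had 591 and 521 in WT, against 18.9 and 2.6 in delta. Dkk2, a secreted Wnt antagonist, had 162 and 171 in WT, against 2.68 and 5.04 in delta, and Aldh1a2, the main retinaldehyde dehydrogenase of the embryo, 66.9 and 80.5 in WT, against 1.34 and 3.11 in delta. Smarca1, an ISWI chromatin remodeller, had 78.7 and 93.7 in WT, against 20.7 and 9.51 in delta. Pdgfra, a receptor for platelet-derived growth factor that marks many fibroblasts, had 46.2 and 55.7 in WT, against 5.78 and 5.48 in delta. Pdgfra was far brighter in the arrays titled deleted, 1628 and 1743, which count in the mean used for the filter. Aldh1a2 (520 and 413), Smarca1 (494 and 395) and Dkk2 (340 and 322) were also brighter there than in any other group. All 5 passed (adjusted p of 4.64e-06 for Angpt1 and 0.00176 for Smarca1 at the ends of their range).

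Among the falls, Afp and Akr1c13 were close to 0 in WT and well above the median signal in delta. Afp, alpha-fetoprotein, a serum protein of fetal liver and yolk sac, had 0.88 and 6.36 in WT, against 548 and 534 in delta (difference -4.84, adjusted p = 2.39e-06). Akr1c13, an aldo-keto reductase, had 8.17 and 9.75 in WT, against 597 and 575 in delta (difference -4.59). Myrf, a transcription factor of myelin genes, had 11.6 and 11.9 in WT, against 81 and 67.7 in delta. For these 3 genes no fold is given. Myrf was far brighter in the arrays titled deleted, 1064 and 1033, which count in the mean used for the filter.

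Ppbp, the precursor of the platelet chemokine CXCL7, had the greatest fall with a fold: 326 and 282 in WT, against 3120 and 3499 in delta, 10.4-fold lower in WT (95% interval of the difference -3.59 to -3.17, adjusted p = 1.3e-07). Aldh1a1, another retinaldehyde dehydrogenase, had 198 and 208 in WT, against 2049 and 1624 in delta, 8.41-fold lower. Actg2, the gamma actin of enteric smooth muscle, had 59.5 and 48.7 in WT, against 514 and 591 in delta, 8.11-fold lower. The delta pair lay above the median signal for all 3, and the WT pairs were tight. Oas2, which makes the 2-5A messenger of antiviral defence, had 181 and 133 in WT, against 1350 and 1354 in delta, and its neighbour in the gene cluster, Oas3, had 79.7 and 47.1 in WT, against 385 and 659 in delta. Krt7, a keratin of simple epithelium, had 367 and 310 in WT, against 2660 and 2557 in delta, 7.43-fold lower.

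The remaining falls of the 15 were of mixed kinds. Kng1 (kininogen, 6.59-fold), Pkp1 and Pkp2 (plakophilins of the desmosome, 6.38-fold and 4.22-fold), Moxd1 (a copper monooxygenase, 6.12-fold) and Asb5 (a SOCS-box protein, 5.55-fold) were lower in WT. So were Nnmt (nicotinamide N-methyltransferase, which uses the same methyl donor as G9a, 5.19-fold), Gpx3 (the secreted glutathione peroxidase, 5.01-fold), Kcnj15 (an inward rectifier potassium channel, 4.58-fold) and Pappa (a protease that cuts IGF-binding proteins, 4.5-fold). Nnmt had 30 and 23.8 in WT, against 192 and 221 in delta. Gpx3 had 63 and 41.7 in WT, against 313 and 333 in delta.

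**Figure D2:**
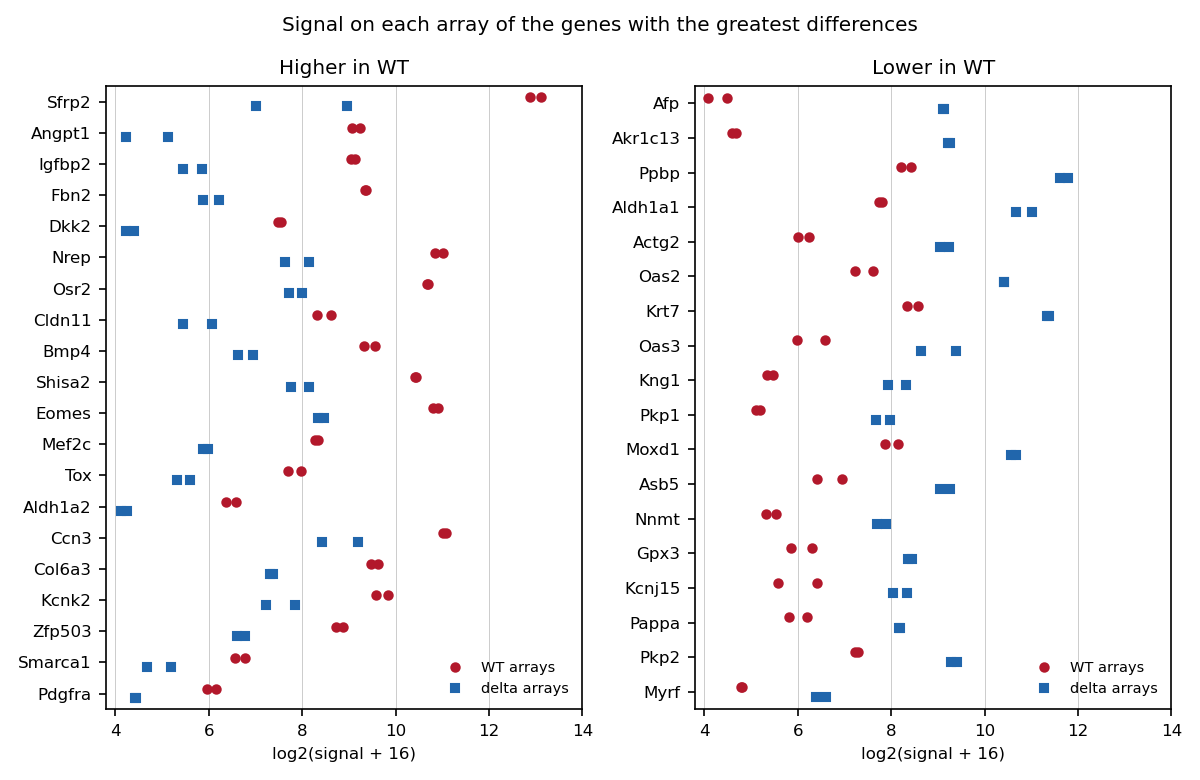
Signal of each WT array (red circles) and each delta array (blue squares) as log2(signal + 16) for the 20 genes of greatest rise (left panel) and the 18 of greatest fall (right panel), sorted by the size of the difference. The 2 pairs of arrays do not overlap for any gene shown, which the rule for choosing them requires, and the delta pair of Sfrp2 (484 and 112) is spread most widely among the brighter genes.

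The same 38 genes were set beside the arrays of the 2 substituted forms, which share the WT arrays with the comparison above. Against H1093K, 37 of the 38 passed in the same direction, in a comparison that called 1138 probe sets (8.38%). The shared WT arrays, and the choice of the 38 by WT against delta, favour such a count, so it is not independent support. Sfrp2 had 104 and 91.8 on the H1093K arrays, Bmp4 153 and 172, Ppbp 2656 and 2473, and Oas2 1623 and 1592. Pdgfra, at 27.6 and 48.9 on the H1093K arrays, was the gene that did not pass (difference from WT 0.33, adjusted p = 0.442). Afp and Akr1c13 lay between: Afp had 177 and 162 with H1093K and Akr1c13 had 197 and 207, far from the WT values and under the delta values. Asb5 lay beyond delta, with 1154 and 1106 on the H1093K arrays, against 598 and 515 in delta. Against K165A, 0 of 13576 probe sets passed (0%) in limma, and 433 had an unadjusted p under 0.05. For the 38 genes the difference of WT from K165A ran between -0.53 (Pdgfra) and 0.93 (Igfbp2), and the lowest adjusted p was 0.652. Igfbp2 had 296 and 248 with K165A, below both WT arrays.

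Wnt pathway genes that passed were all higher in WT. Of 27 tested ligands, receptors and antagonists, 9 rose and 0 fell (33.3% called, with a median of 0.27), and 20 further members were too dim to test. The fits without 1 array had 8, 6, 8 and 7 rises, and 2 falls appeared without WT 2 and with the replicate block. Beside the antagonists Sfrp2 and Dkk2, 3 Frizzled receptors rose. Fzd8 had 683 and 865 in WT, against 185 and 206 in delta, 3.72-fold higher. Fzd1 had 564 and 591 in WT, against 147 and 221 in delta, 3.01-fold higher, and Fzd7 1034 and 1363 in WT, against 791 and 845 in delta, 1.44-fold higher and not stable to leaving out an array. Lgr5, a receptor for R-spondins and itself a Wnt target, had 262 and 320 in WT, against 121 and 89.3 in delta, 2.54-fold higher. The co-receptor Lrp6 was 1.41-fold higher, Ror2, a receptor for Wnt5a, 1.38-fold, and Tcf7l2, a factor that carries the signal in the nucleus, 1.61-fold. Ror2 passed in 1 of the 4 fits without 1 array and Tcf7l2 in 3 of 4. Both inhibitory and transmitting members were thus among the 9.

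In the BMP and TGF-beta pathway 8 of 39 tested genes rose and 3 fell (28.2% called, median 0.16). The fits without 1 array had 5, 4, 5 and 6 rises and 1, 2, 1 and 1 falls, and the replicate block gave 15 rises. Ligands rose: Bmp4 as above, Tgfb2 with 1516 and 1683 in WT, against 868 and 1016 in delta (1.69-fold), and Tgfb3 1.36-fold. Tgfbi, a matrix protein induced by TGF-beta, had 3815 and 3507 in WT, against 1206 and 1271 in delta, 2.93-fold higher (adjusted p = 2.73e-06). Targets and inhibitors of BMP signalling rose as well: Id2 had 1359 and 1450 in WT, against 879 and 784 in delta (1.68-fold), and Smad6, an inhibitory Smad, was 1.43-fold higher. The 3 that fell were Ltbp2, a latent TGF-beta binding protein (66.3 and 53 in WT, against 141 and 132 in delta), Tgif1 and Twsg1, both by less than 1.3-fold. Tgfb3, Smad6, Tgif1 and Twsg1 were not stable to leaving out an array. Tgif1 and Twsg1 lie on chromosome 17, whose shift is described below, and without the genes of that chromosome 1 member fell.

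Insulin-like growth factor genes held the highest share of calls among the lists with at least 10 tested members: 7 of 18 rose and 5 fell (66.7%). The fits without 1 array had 5, 5, 7 and 6 rises and 2, 3, 3 and 3 falls. The ligand Igf1 had 172 and 145 in WT, against 28.7 and 48 in delta, 3.25-fold higher (adjusted p = 0.000584). The binding proteins divided. Igfbp2 (10.8-fold), Igfbp4 (573 and 727 in WT, against 262 and 255 in delta) and Igfbp5 (56.4 and 62.5 in WT, against 32.3 and 23.4 in delta) were higher in WT. Igfbp7 had 2056 and 2209 in WT, against 5668 and 6750 in delta, 2.89-fold lower in WT, and Pappa, the protease that releases IGF from Igfbp4, was 4.5-fold lower. Inside the cell, the receptor substrates Irs1 (1.56-fold) and Irs2 (1.54-fold) and the adaptor Grb10 (1.46-fold) were higher in WT, and Igf2r, the clearance receptor for IGF2, was 1.3-fold lower. Igfbp5, Irs2 and Igf2r were not stable to leaving out an array.

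Of 32 tested FGF, EGF-type, PDGF, VEGF and angiopoietin genes, 6 rose and 7 fell (40.6% called, median 0.16), with 4, 4, 5 and 5 rises and 4, 4, 5 and 5 falls when an array was left out. PDGF receptors and ligands moved in opposite directions. Pdgfrb had 1519 and 1270 in WT, against 645 and 680 in delta, 2.07-fold higher, and Pdgfra was the dim gene given above. Pdgfc had 268 and 286 in WT, against 656 and 535 in delta, 2.08-fold lower, and Pdgfb 57.2 and 74.7 in WT, against 192 and 159 in delta, 2.34-fold lower. Vegfa, the main angiogenic factor, had 100 and 65.8 in WT, against 238 and 224 in delta, 2.53-fold lower, while its co-receptor Nrp2 was 2.42-fold higher. Csf1, the macrophage growth factor, was 1.56-fold lower.

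Feedback regulators of the MAP kinase pathway, with the transcription factor Etv5 counted among them, rose in 6 of 16 tested genes and fell in 1 (43.8% called). The fits without 1 array kept only 2, 1, 2 and 1 rises. Spry2, with 1211 and 1086 in WT, against 675 and 693 in delta (1.66-fold), was stable to leaving out each array, and Spry1, Spred1, Dusp6, Dusp7 and Etv5 were not. Ier3, the gene that fell, is known from the immediate early response, and the replicate block gave 2 falls. Ier3 lies on chromosome 17 as well, and without the genes of that chromosome 0 members fell. In the Notch pathway 1 of 20 tested genes passed: Nrarp, a target and inhibitor of Notch, had 273 and 275 in WT, against 722 and 838 in delta, 2.74-fold lower, and the replicate block gave 3 rises. In the Hedgehog pathway 2 of 7 rose, Gas1, a co-receptor (3280 and 3397 in WT, against 1495 and 1552 in delta), and Gli2 (1.58-fold), with 2, 1, 2 and 1 without 1 array, where Gli2 was the one lost.

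Chemokines, cytokines and their receptors passed in 13 of 31 tested genes, 5 rising and 8 falling (41.9%, median -0.06), or 3, 3, 3 and 3 rises and 4, 7, 7 and 4 falls without 1 array. CXC ligands that attract neutrophils fell: beside Ppbp, Cxcl5 had 213 and 223 in WT, against 630 and 483 in delta, 2.43-fold lower, and Cxcl15 had 925 and 1062 in WT, against 1815 and 1828 in delta, 1.82-fold lower. Cxcl1 was 1.36-fold lower but not stable to leaving out an array. Cxcl12, the homing chemokine of stromal cells, went the other way, with 2563 and 2556 in WT, against 1348 and 1296 in delta (1.92-fold, adjusted p = 2.45e-05), as did its scavenger receptor Ackr3 with 1360 and 1758 in WT, against 618 and 458 in delta (2.85-fold). Lifr, the receptor for leukaemia inhibitory factor, was 2.31-fold higher. Of 6 tested complement genes 3 fell and 1 rose: Clu, an inhibitor of the membrane attack complex, had 311 and 383 in WT, against 1008 and 1032 in delta, C1s1, the protease of the classical pathway, was 1.79-fold lower, and Cd59a, another inhibitor, 1.7-fold lower, while the rise, of Masp1, was lost in each fit without 1 array.

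Among the matrix genes, collagens passed in 8 of 19 tested members, 5 rising and 3 falling (42.1%, median 0.03), and the rises held at 6, 5, 5 and 5 without 1 array. All 3 main chains of collagen VI, a beaded-filament collagen, were higher in WT. Col6a3 had 700 and 769 in WT, against 150 and 143 in delta, 4.62-fold higher (95% interval of the difference 1.99 to 2.42). Col6a1 had 5749 and 5161 in WT, against 3500 and 3600 in delta, and Col6a2 had 3053 and 2627 in WT, against 1811 and 1636 in delta, so that these chains differed by 1.53-fold and 1.64-fold. Col3a1, the fibrillar partner of type I collagen, was 1.86-fold higher, and Col8a1 1.68-fold. Col12a1, Col4a6 and Col5a1 fell, the first by 1.93-fold and the other pair not in every reduced fit. Of 21 tested collagen-processing enzymes 4 fell and 0 rose (19% called): Tll1, a tolloid protease, had 127 and 150 in WT, against 498 and 483 in delta, 3.3-fold lower, Loxl4 was 1.92-fold lower, Loxl1 1.48-fold and Plod2 1.55-fold, the last not stable to leaving out an array. Leaving out delta 2, or the replicate block, gave 1 rise.

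Microfibril and elastic fibre genes passed in 10 of 17 (58.8%), with 6 rises, of which 3, 3, 3 and 4 were left without 1 array, and 4 falls, which held at 4 in each of those fits. Fbn2 rose 9.98-fold, Mfap2, a microfibril glycoprotein, had 308 and 388 in WT, against 125 and 60.4 in delta, and Fbln1 was 1.88-fold higher, of which Mfap2 passed in 1 of the 4 reduced fits. Fbln2 went the other way, with 4087 and 4068 in WT, against 8013 and 9180 in delta, 2.1-fold lower, as did Emilin1 (1.45-fold), Loxl1 and Ltbp2. Small leucine-rich proteoglycans, which coat collagen fibrils, rose in 3 of 5 tested: Omd had 1423 and 1467 in WT, against 438 and 361 in delta, Aspn 865 and 842 in WT, against 372 and 334 in delta, and Ogn 11539 and 9071 in WT, against 6672 and 6958 in delta, where Ogn passed in 1 of the 4 reduced fits. Of 16 large proteoglycan and hyaluronan genes 4 rose and 1 fell, led by Gpc3, a glypican that restrains growth (2.21-fold), and Vcan, versican (2.04-fold), and the fall, of Sdc4, was lost in each fit without 1 array. Of 24 matricellular genes 7 rose and 3 fell (41.7%), with Smoc2 at 3515 and 3746 in WT, against 1378 and 1480 in delta, and Npnt at 1892 and 2451 in WT, against 753 and 1003 in delta.

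The inhibitors of matrix metalloproteases moved apart. Timp3, which stays bound to the matrix, averaged 1153 ± 84.7 in WT and 268 ± 21.6 in delta (SD, n = 2 arrays each), 4.11-fold higher in limma's fit (adjusted p = 1.65e-06). Timp1, which is soluble, had 2116 and 1881 in WT, against 3371 and 3401 in delta, 1.69-fold lower. In that list of 25 tested proteases and inhibitors 5 rose and 3 fell (32% called), 3, 3, 4 and 3 rising and 1, 1, 1 and 2 falling without 1 array, and the replicate block gave 5 falls. Adamts1, a protease of versican, was 2.46-fold higher and the membrane protease Mmp16 2.28-fold higher. Of 14 laminin and integrin genes 4 fell and 1 rose, and Lamb2 (1107 and 1183 in WT, against 713 and 658 in delta) and Lamb1 (932 and 839 in WT, against 1238 and 1250 in delta), alternative beta chains, went in opposite directions, with 1, 2, 3 and 1 falls without 1 array. Of 8 serpin genes 3 fell and 0 rose, all intracellular clade B members: Serpinb1a (576 and 594 in WT, against 1524 and 1480 in delta), Serpinb6b and Serpinb9b, which were 2.53-fold, 2.53-fold and 2.54-fold lower.

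Keratin, desmosome and epithelial junction genes fell in 10 of 22 tested members and rose in 1 (50% called, median -0.28), against 7.69% falling among all genes. The falls held at 8, 9, 8 and 9 without 1 array, and 60 more members were too dim to test. Keratins of simple epithelium were among them: Krt18 had 172 and 168 in WT, against 583 and 553 in delta, 3.14-fold lower, Krt7 was 7.43-fold lower and Krt19 1.53-fold lower. Krt80, an epithelial keratin, had 330 and 295 in WT, against 886 and 921 in delta, 2.8-fold lower. Parts of the desmosome fell with them: Pkp2 had 134 and 141 in WT, against 661 and 604 in delta, and Dsg2, desmoglein 2, had 20.9 and 35 in WT, against 160 and 111 in delta. The exception was the claudin Cldn11, which rose 6.53-fold, and the replicate block gave 3 rises. Krt8, the partner of Krt18, had 138 and 129 in WT, against 145 and 112 in delta, and did not pass.

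Of 9 epithelial markers 6 could be tested, and 3 of them fell, Krt7, Krt18 and Krt19 (50% called), with 0 rises, or 1 with the replicate block. The summed signal of all 9 was 1246 and 1155 in WT, against 4151 and 3835 in delta, with Krt7 the brightest of them. Epcam, the epithelial adhesion molecule, had 4.8 and 5.65 in WT, against 35.9 and 16.6 in delta, and Cdh1, E-cadherin, had 175 and 168 in WT, against 135 and 77.4 in delta, where Epcam was too dim to test and Cdh1 did not pass (adjusted p = 0.185). Of 13 fibroblast markers 12 were tested, 5 rose and 2 fell, and their sum was 65087 and 53082 in WT, against 50482 and 58456 in delta, so that the pairs overlapped. Thy1, a surface marker of fibroblasts, had 931 and 1047 in WT, against 1711 and 2028 in delta, 1.87-fold lower. Sums over macrophage and leukocyte markers were 871 and 824 in WT, against 1088 and 1063 in delta, where 2 of 4 tested fell, or 0, 0, 1 and 0 without 1 array, with Ptprc at 18.4 and 23.1 in WT, against 37.3 and 12 in delta. Sums over endothelial markers, of which 0 of 2 tested passed in limma (1 at an unadjusted p under 0.05) and 1 fell without WT 1 or with the replicate block, were 353 and 327 in WT, against 479 and 415 in delta, and over adipocyte markers 296 and 296 in WT, against 458 and 537 in delta. What part other cells have in the keratin result was not tested.

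Smooth muscle and contractile genes fell in 4 of 28 and rose in 1 (17.9% called, against 13.5% of all genes). Without 1 array 2, 2, 3 and 2 fell. Actg2 fell 8.11-fold and Cnn1, calponin, had 568 and 539 in WT, against 1063 and 1046 in delta, 1.88-fold lower. Tagln and Tagln2 fell by 1.41-fold and 1.2-fold, not in every reduced fit, and the rise, of Pdlim5, was lost without WT 1 or delta 1 (0, 1, 0 and 1). Of 9 tested cadherin genes 4 rose and 1 fell. Cdh2, N-cadherin, had 1091 and 1266 in WT, against 2633 and 2789 in delta, 2.29-fold lower, while Cdh13, the anchor-linked T-cadherin, was 2.21-fold higher and the protocadherins Pcdhb17 and Pcdh18 3.94-fold and 2.21-fold higher.

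Transcription factors of mesenchyme and mesoderm were higher in WT wherever they passed. Of 43 tested, 20 rose and 0 fell (46.5% called, median 0.37), against 5.85% rising among all genes, and 47 were too dim to test. Without 1 array 9, 11, 10 and 14 rose, and 9 were stable to all of these: Osr2, Eomes, Mef2c, Irx3, Ebf1, Klf4, Tbx18, Mef2a and Prrx1. Irx3, an Iroquois factor, had 418 and 457 in WT, against 139 and 92.8 in delta, 3.48-fold higher. Ebf1, known from B cells and adipose precursors, had 240 and 312 in WT, against 120 and 63.2 in delta, and Tbx18, a T-box factor of somites and epicardium, had 357 and 397 in WT, against 175 and 157 in delta. Prrx1 and Prrx2, limb mesenchyme factors, rose by 1.31-fold and 1.22-fold, the rise of Prrx2 in 0 of the 4 reduced fits. Twist1, which represses epithelial genes, had 597 and 653 in WT, against 415 and 434 in delta, 1.46-fold higher, and Zeb1, of like function, 1.37-fold. These small rises of Twist1 and Zeb1 were not stable to leaving out an array. Among Hox genes and their cofactors 2 of 18 passed, 1 each way, or 0, 0, 1 and 0 rises and 0, 1, 0 and 1 falls without 1 array, and 4 rises with the replicate block. The fall was of Pbx2, on chromosome 17.

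AP-1 subunits rose in 4 of 15 and fell in 0. Fosb had 3994 and 4429 in WT, against 1149 and 1357 in delta, 3.34-fold higher (adjusted p = 1.19e-05), and Jun had 3804 and 3718 in WT, against 1623 and 1623 in delta, 2.3-fold higher (adjusted p = 4.12e-06). Atf3 was 1.55-fold and Junb 1.38-fold higher, Junb in 1 of the 4 reduced fits. Immediate early genes outside AP-1 rose in 10 of 42 and fell in 6 (38.1% called), with 8, 8, 9 and 7 rises and 5, 5, 5 and 4 falls without 1 array. Klf4 had 942 and 1268 in WT, against 382 and 409 in delta, 2.7-fold higher, Zfp36l1, which destabilises messages with AU-rich elements, was 2.01-fold higher, its relative Zfp36 1.65-fold, Egr2 1.87-fold and Klf2 1.79-fold. Among those that fell, Plk2 had 2045 and 2078 in WT, against 3294 and 3852 in delta, Ier3 was 1.55-fold lower and Gadd45b 1.4-fold lower.

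OAS antiviral enzymes, which sense double-stranded RNA, fell in 4 of 6 tested members and rose in 0 (median -0.38). Oas2 and Oas3 fell 7.99-fold and 6.7-fold. Oas1a had 1816 and 1658 in WT, against 2202 and 2214 in delta, 1.27-fold lower, and Oasl2 had 1426 and 1479 in WT, against 1815 and 2071 in delta, 1.33-fold lower. Without 1 array 3, 3, 3 and 2 fell, and Oas1a and Oasl2 were the ones lost. Other interferon-stimulated genes divided: 11 of 59 fell and 6 rose (28.8% called, median -0.16), with 9, 9, 8 and 9 falls and 2, 2, 3 and 4 rises without 1 array. Trim30a, a regulator of Toll-like receptor signalling, had 451 and 527 in WT, against 1522 and 1436 in delta, 2.97-fold lower. Ifi27l2a was 2.45-fold lower, and the guanosine triphosphatase Ifi47 2.23-fold. Rsad2, viperin, had 557 and 676 in WT, against 1216 and 1159 in delta, 1.91-fold lower, and Ifih1, the RNA sensor MDA5, had 1152 and 1097 in WT, against 1751 and 1752 in delta, 1.55-fold lower. The IFIT cluster went the other way. Ifit3 had 3370 and 3201 in WT, against 2118 and 2115 in delta, 1.55-fold higher, Ifit2 had 1485 and 1625 in WT, against 1066 and 1120 in delta, 1.42-fold higher, and Ifit1 was 1.28-fold higher and not stable to leaving out an array.

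Promoter windows of RefSeq (GRCm38.p6), 250 bases before to 50 after a start, were searched on both strands for the letters GAAANNGAAA, the core of the interferon-stimulated response element. They occur in 3.15% of the windows of 6344 tested genes. In the OAS and interferon lists combined, 52 genes have a window, and the letters occur in 9 of 12 that fell, 3 of 6 that rose and 11 of 34 that did not pass. Windows of genes from both directions are shown, on the strand of the gene, with the matches of either orientation in capitals, to let the letters be compared between genes that fell and genes that rose. A match is a description of the sequence and does not show a binding site. Ifit3 has 2 matches in its promoter window, of which 1 is shown. Oas3 (chr5:120777695-120777764, minus strand), Oas1a (chr5:120907506-120907575, minus strand) and Rsad2 (chr12:26456533-26456602, minus strand) fell, and Ifit1 (chr19:34640755-34640824, plus strand) and Ifit3 (chr19:34583343-34583412, plus strand) rose.
Oas3: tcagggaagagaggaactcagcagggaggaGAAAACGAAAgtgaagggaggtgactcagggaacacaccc
Oas1a: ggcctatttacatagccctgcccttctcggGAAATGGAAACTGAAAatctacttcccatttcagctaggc
Rsad2: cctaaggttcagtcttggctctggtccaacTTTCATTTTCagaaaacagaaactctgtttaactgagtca
Ifit1: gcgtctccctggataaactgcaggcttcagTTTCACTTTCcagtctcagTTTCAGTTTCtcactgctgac
Ifit3: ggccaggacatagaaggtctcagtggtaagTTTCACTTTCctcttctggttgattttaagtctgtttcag

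Major histocompatibility class I and antigen-processing genes fell in 8 of 19 tested members and rose in 0 (42.1% called, median -0.5), with 7, 6, 7 and 6 falls without 1 array. H2-K1, a classical class I heavy chain, had 3594 and 3296 in WT, against 6514 and 7482 in delta, 2.02-fold lower (adjusted p = 0.000127), and H2-D1 had 3514 and 3391 in WT, against 6717 and 7378 in delta, 2.03-fold lower. The peptide transporter subunits Tap1 and Tap2 were 1.93-fold and 2.07-fold lower, and the immunoproteasome subunits Psmb8 (192 and 200 in WT, against 629 and 642 in delta) and Psmb9 were 3.07-fold and 2.06-fold lower. Of the 10 tested members on chromosome 17, where the mouse class I, transporter and immunoproteasome genes lie together, 7 fell (median -0.98). Of the 9 on other chromosomes 1 fell, Cd74, the invariant chain of class II, and their median was -0.11. Cd74 passed in 1 of the 4 reduced fits.

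Chromosome 17 as a whole stood apart from the other chromosomes. Of its 381 tested genes 84 fell and 8 rose (24.1% called, median -0.17), against 13.5% called and a median of -0.02 over all genes, and 70.9% of its genes lay below 0. Without 1 array 44, 52, 47 and 41 fell and 4, 3, 5 and 6 rose, and the replicate block gave 115 falls and 18 rises. The next lowest median of a chromosome was -0.08, on chromosome 2, and the highest were 0.12 on chromosome 12 (30 rose, 8 fell) and 0.1 on chromosome 13 (38 rose, 11 fell). As medians of the deviation from the mean of all 10 arrays, the genes of chromosome 17 lay at -0.06 and -0.06 in WT, -0.07 and -0.04 in K165A, -0.02 and -0.01 in H1093K, 0.02 and 0.02 in the arrays titled deleted and 0.09 and 0.12 in delta. On chromosome 13 the delta arrays were the lowest, at -0.09 and -0.12, against 0.01 and 0.02 in WT and 0.01 and 0 in H1093K. The K165A arrays were at 0.04 and 0.04 there and those titled deleted at 0.07 and 0.06. In both cases the delta arrays lay at the end of the range, beyond H1093K as well as WT.

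**Figure D3:**
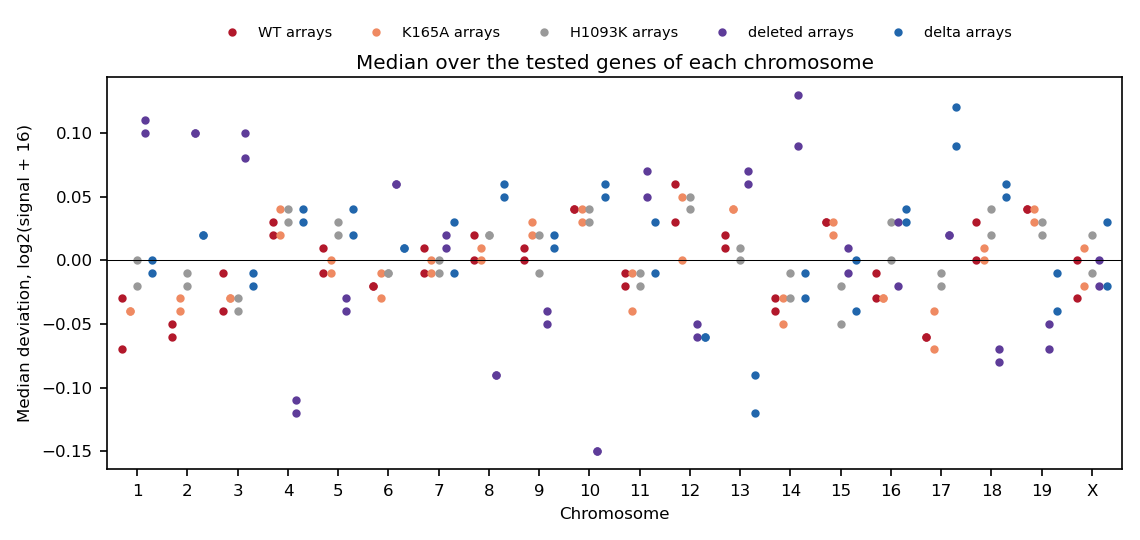
Median, over the tested genes of each chromosome (horizontal axis), of the deviation from the 10-array mean in log2(signal + 16) (vertical axis), 1 point per array. The delta arrays are highest of the series on chromosome 17 (0.09 and 0.12) and lowest on chromosome 13 (-0.09 and -0.12), and the arrays titled deleted differ from the rest on several chromosomes.

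The shift was not even along chromosome 17. With its 381 tested genes put in order and divided into 10 bins, the first 4 bins had medians between -0.02 and 0.08, and the other 6 had medians between -0.35 and -0.22. The break between the 4 and the 6 was placed after seeing these medians. Across it, 13 of 153 genes fell before and 71 of 228 after, and 76 of 153 and 194 of 228 lay below 0. In the later portion the median deviation was -0.12 and -0.11 in WT, -0.12 and -0.08 in K165A, -0.05 and -0.03 in H1093K, 0.1 and 0.08 in the arrays titled deleted and 0.17 and 0.18 in delta. In the first portion it was 0.02 and 0.01 in WT, against 0.01 and -0.01 in delta. Among the 200 such bins of the 20 chromosomes, the 6 later ones of chromosome 17 had the 6 lowest medians, and the bins of other chromosomes lay between -0.18 and 0.2.

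Genes of unlike roles fell in that later portion, among them Lbh (a factor of limb and heart, difference -1.93), Trim39, Neu1, Stap2, Strn, Crim1, Prepl, Sos1, Brd2 and, in 1 of the 4 reduced fits each, the mitochondrial genes Ndufv2 and Ndufa7. Vegfa, Ier3, Tgif1, Twsg1, Pbx2 and the class I genes described above lie there too, and H2-K1 is number 175 of the 381 in order. Ehmt2 itself is number 197 and was one of 4 genes that rose there. Cdkn1a, which fell 2.63-fold, lies shortly before the break. Without the genes of chromosome 17, 446 of 7380 genes rose and 513 fell. The cause of the shift was not tested.

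**Figure D4:**
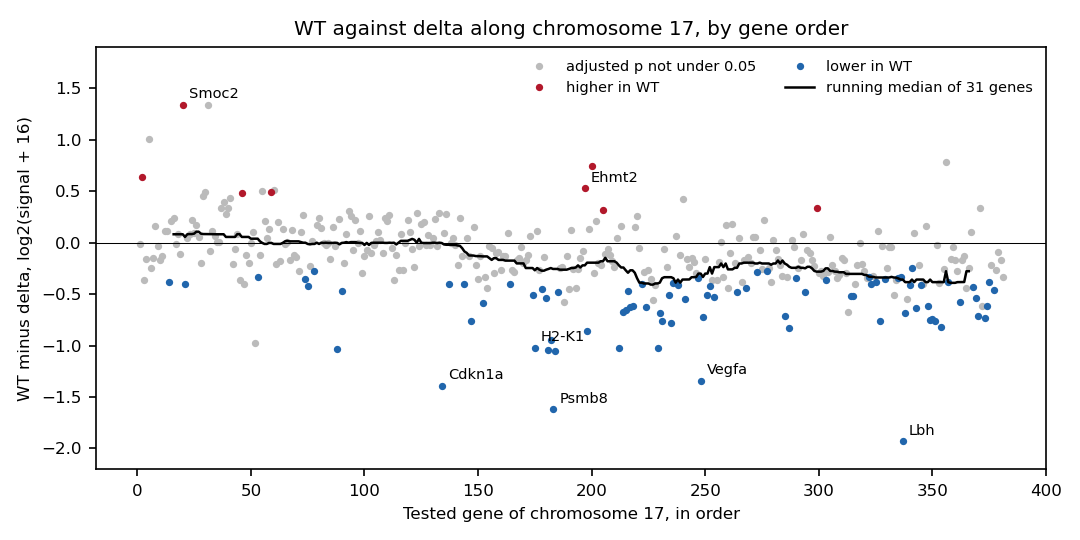
Difference between WT and delta in log2(signal + 16) (vertical axis) for the 381 tested genes of chromosome 17, in their order along it (horizontal axis), with the running median of 31 genes as a line. The line stays near 0 over the first 4 of 10 bins and lies below 0 over the rest, where 71 of the 84 falls are, and Ehmt2 (0.53) stands above it.

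Genes of cholesterol synthesis and uptake fell in 11 of 28 and rose in 2 (46.4% called, median -0.32), with 4, 7, 4 and 6 falls without 1 array. Enzymes of the late pathway led: Msmo1 had 1161 and 1165 in WT, against 1985 and 1933 in delta, 1.68-fold lower (adjusted p = 0.000125), Nsdhl had 558 and 612 in WT, against 986 and 1084 in delta, 1.75-fold lower, and Sc5d was 1.5-fold lower. Fdps, which makes farnesyl diphosphate, had 2221 and 1927 in WT, against 3403 and 3480 in delta, 1.66-fold lower. Sqle, Lss, Fdft1, Cyp51 and Idi1 fell by 1.22-fold to 1.37-fold, though not in every reduced fit. Abca1, which exports cholesterol, rose 1.65-fold, and the rises numbered 1, 1, 2 and 1 without 1 array. The other rise was of a synthesis enzyme, Pmvk (difference 0.83), which passed in 1 of the 4 reduced fits. Of 37 fatty acid and lipid storage genes 8 fell and 2 rose (27%), with 4, 4, 4 and 6 falls without 1 array. Fabp4, a fatty acid carrier, had 155 and 108 in WT, against 368 and 358 in delta, and Me1, malic enzyme, was 1.53-fold lower, while both rises were lost in each fit without 1 array and the replicate block gave 5. Of 39 glycolysis and hypoxia genes 9 fell and 2 rose (28.2%), with 4, 7, 6 and 5 falls without 1 array. Vegfa, Bhlhe40 (1.87-fold), Ddit4 (1.82-fold) and the lactate carrier Slc16a1 (1.66-fold) were stable falls, and Ndrg1 rose 1.82-fold, the 1 rise left in each of those fits.

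Amino acid synthesis, transport and ATF4 target genes fell in 5 of 37 and rose in 2 (18.9%), and aminoacyl-tRNA synthetases fell in 4 of 25 and rose in 0 (16%). Among all genes 13.5% were called, so that both shares lie little above it. Without 1 array 2, 3, 4 and 5 of the first list and 3, 2, 2 and 2 of the second fell, and with the replicate block 9 and 9. Asns, asparagine synthetase, had 517 and 540 in WT, against 1085 and 1182 in delta, 2.11-fold lower (adjusted p = 2.45e-05). Aars and Gars, the synthetases for alanine and glycine, had 1196 and 1298 and then 1980 and 1881 in WT, against 1824 and 2004 and then 2561 and 2679 in delta. Nars and Tars fell by 1.24-fold and 1.22-fold, less stably. Got1, a transaminase, and Phgdh and Cth, enzymes of serine and cysteine synthesis, fell by 1.28-fold to 1.51-fold when all arrays were used. Atf3, itself a target of ATF4, rose, and was the 1 rise left in each fit without 1 array.

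The same promoter windows were searched for TGATGNAA, the core of the amino acid response element that ATF4 dimers bind, which occurs in 2.13% of all windows. In both lists combined 47 genes have a window, and the letters occur in 5 of 7 that fell, 1 of 2 that rose and 6 of 38 that did not pass. Windows are shown for Asns (chr6:7693195-7693262, minus strand), Aars (chr8:111033700-111033767, plus strand) and Got1 (chr19:43524670-43524737, minus strand), which fell, and Atf3 (chr1:191183406-191183473, minus strand), which rose, with a match in capitals, to show that genes of both directions carry the same letters. Aars has 2 matches in its promoter window, of which 1 is shown.
Asns: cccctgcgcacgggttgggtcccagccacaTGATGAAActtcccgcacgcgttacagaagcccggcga
Aars: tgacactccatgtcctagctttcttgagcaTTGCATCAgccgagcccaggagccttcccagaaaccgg
Got1: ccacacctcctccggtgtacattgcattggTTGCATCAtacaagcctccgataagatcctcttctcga
Atf3: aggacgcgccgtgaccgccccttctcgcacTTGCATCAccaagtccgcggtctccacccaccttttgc

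Across all called genes, promoters of fallers had fewer CpG pairs. The median window held 22 CpG in 360 genes that rose, 18 in 470 that fell and 22 in 5514 that did not pass, and 18 in the fallers without chromosome 17. In windows of falls over 2-fold the median was 11 (61 genes) and in rises over 2-fold 17 (78 genes). The letters TGANTCA, the core of the AP-1 site, occur in 5.83% of windows of genes that rose, 8.72% of those that fell and 4.28% of the rest, and in 2 of 78 rises of over 2-fold (2.56%) and 11 of 61 falls of that size (18%). The letters CCAAT occur in 41.1%, 40.4% and 38.8% of the same 3 groups. In the cholesterol list CCAAT occurs in 7 of 7 fallers with a window and in 12 of 14 that did not pass. TCACNCCAC, the core of the sterol regulatory element, occurs in 0 of those 7, and its absence from this window says nothing of the factor. Other letters searched were TGACGTCA (cyclic AMP response element, 3.39% of all windows), TTCNNNGAA (gamma-activated site, 6.49%), TGACNNNGC (antioxidant response element, 14.8%), GGGANTTTCC (NF-kappa-B site, 0.394%), CATGNNNNNNCATG (p53 site, 0.268%) and TATTTTTA (MEF2 site, 1.1%). The antioxidant letters, for one, occur in 13.9% of windows of genes that rose and 14.5% of those that fell. These shares are descriptions of the windows, with no test.

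NRF2 targets, glutathione enzymes and metallothioneins fell in 9 of 41 and rose in 0 (22%, median -0.08), with 4, 5, 4 and 5 falls without 1 array. Gpx3 fell 5.01-fold. Gstm2, a glutathione transferase, had 842 and 821 in WT, against 2006 and 1810 in delta, 2.27-fold lower (adjusted p = 7.88e-06), and Gstm4 had 122 and 132 in WT, against 274 and 243 in delta. Mt2, Hmox1, Srxn1, Gss, Gstt3 and Gpx7 fell by 1.21-fold to 1.51-fold and not in every reduced fit, and 1 rise appeared without WT 1. Of 40 chaperone and unfolded protein genes of the endoplasmic reticulum 4 fell and 2 rose (15%, near the 13.5% of all genes). Without 1 array 3, 3, 4 and 2 fell and 0, 0, 0 and 1 rose, and 7 fell with the replicate block. Dnajb11 (1.67-fold) and Xbp1 (1.45-fold) were stable falls. Of 23 cytosolic heat shock genes 3 fell and 1 rose (17.4%, against the same 13.5%). Without 1 array 2, 1, 1 and 1 fell, and with the replicate block 6. Hspa1a, an inducible Hsp70 gene, rose 1.67-fold.

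The list of p53 targets and cell cycle brakes, which also holds the cyclins Ccnd2 and Ccnd3, passed in 14 of 41. Of these 11 fell and 3 rose (34.1%, median 0.02), with 8, 9, 9 and 8 falls without 1 array. Cdkn1a, the p21 inhibitor of cyclin-dependent kinases, had 342 and 271 in WT, against 786 and 870 in delta, 2.63-fold lower (adjusted p = 0.000547). Pmaip1, the proapoptotic Noxa, had 460 and 461 in WT, against 1172 and 1016 in delta, 2.32-fold lower, and Gadd45a was 1.63-fold lower. Ccnd2, a cyclin and not a brake, was 1.86-fold lower. Ccnd3, likewise a cyclin, lies in the later portion of chromosome 17 and fell (difference -0.28), in 0 of the 4 reduced fits. Rises came from Cdkn1c, the p57 inhibitor, with 989 and 937 in WT, against 519 and 494 in delta (1.87-fold), from Pltp (1.81-fold), and from Ddit4l, an inhibitor of mTOR, with 300 and 346 in WT, against 76.1 and 61.8 in delta (3.99-fold), and the replicate block gave 6 rises. Cell division genes moved little. Of 65 mitosis genes 6 rose and 0 fell (median 0.09), of which 1, 1, 1 and 1 were left without 1 array and 11 passed with the replicate block. Kif11, a spindle motor, had 805 and 842 in WT, against 622 and 580 in delta, and Mki67 was 1.25-fold higher, in 0 of the 4 reduced fits. Of 53 DNA replication genes 1 rose, Pole2 (1.24-fold), or 0, 0, 2 and 0 without 1 array, while the replicate block gave 7 rises and 1 fall. That block also gave 2 falls of mitosis genes, and leaving out delta 2 gave 1.

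The H3K9 methylation and heterochromatin machinery rose in 5 of 24 tested genes and fell in 0 (20.8%, median 0.09), with 3, 2, 4 and 3 rises without 1 array. Apart from Ehmt2 these were Cdyl, a chromodomain protein that binds methylated H3K9 (610 and 627 in WT, against 392 and 368 in delta, 1.6-fold), Hdac2 (1.33-fold), the demethylase Kdm3b (1.31-fold) and Cbx1, or HP1 beta (1.29-fold). Cdyl and Ehmt2 were stable to leaving out an array. Among 13 genes of DNA methylation and demethylation 0 passed in limma, 3 had an unadjusted p under 0.05 and 2 rose with the replicate block. Among 34 Polycomb and trithorax genes 1 passed, Rnf2 (1.29-fold), which kept its call only without WT 1 (1, 0, 0 and 0). Histone genes rose in 3 of 12: the linker histone H1f2 had 3124 and 2999 in WT, against 1842 and 1932 in delta, and H2ax was 1.51-fold and H2az2 1.31-fold higher, H2az2 in 1 of the 4 reduced fits. Imprinted genes passed in 7 of 25 (28%), 4 rising and 3 falling. Plagl1 had 5845 and 5095 in WT, against 1401 and 1114 in delta, 4.32-fold higher (adjusted p = 4.12e-06), and Peg3 had 663 and 809 in WT, against 194 and 139 in delta, 4.15-fold higher, both of them paternally expressed zinc finger factors. Ndn, necdin, also paternally expressed, had 261 and 303 in WT, against 660 and 594 in delta, 2.16-fold lower. Cdkn1c and Grb10 rose, and Igf2r fell 1.3-fold, in 3 of the 4 reduced fits.

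The retinoid list held the opposed pair of Aldh1a2, which rose, and Aldh1a1, which fell, and passed in 6 of 16, 2 rising and 4 falling. Rdh10, which makes retinaldehyde, had 2108 and 2135 in WT, against 3792 and 4034 in delta, 1.84-fold lower (adjusted p = 5.03e-05), Dhrs3, which turns retinaldehyde back, was 1.39-fold lower, and Crabp2, a carrier of retinoic acid, was 1.37-fold higher. Dhrs3 and Crabp2 lost their calls in each fit without 1 array, which left 1 rise. Zinc finger genes named Zfp rose in 11 of 113 and fell in 0 (9.73% called), with 5, 5, 5 and 7 rises without 1 array and 18 with the replicate block. Beside Zfp503 and the immediate early Zfp36 genes they were Zfp521 (1.61-fold), Zfp90, Zfp566, Zfp24 and 4 others, none of these 8 stable to leaving out an array, and 1 fall appeared without WT 2 and 3 with the replicate block. Solute carriers fell in 16 of 136 and rose in 3 (14% called, near the 13.5% of all genes, median -0.1). Without 1 array 8, 8, 9 and 7 fell and 2, 1, 2 and 1 rose. The replicate block gave 25 falls and 6 rises. Slc1a6, a glutamate carrier, had 1188 and 1273 in WT, against 1959 and 2158 in delta, and Slc20a1, a phosphate carrier, was 1.62-fold lower. Among 23 tested ion channel genes 3 rose, with the calcium channel subunits Cacna1c (1.91-fold) and Cacna2d1 (2.07-fold) beside Kcnk2, and 2 fell. Without 1 array 2, 2, 2 and 2 rose, Cacna2d1 in none of these fits, and 2, 1, 1 and 2 fell.

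**Figure D5:**
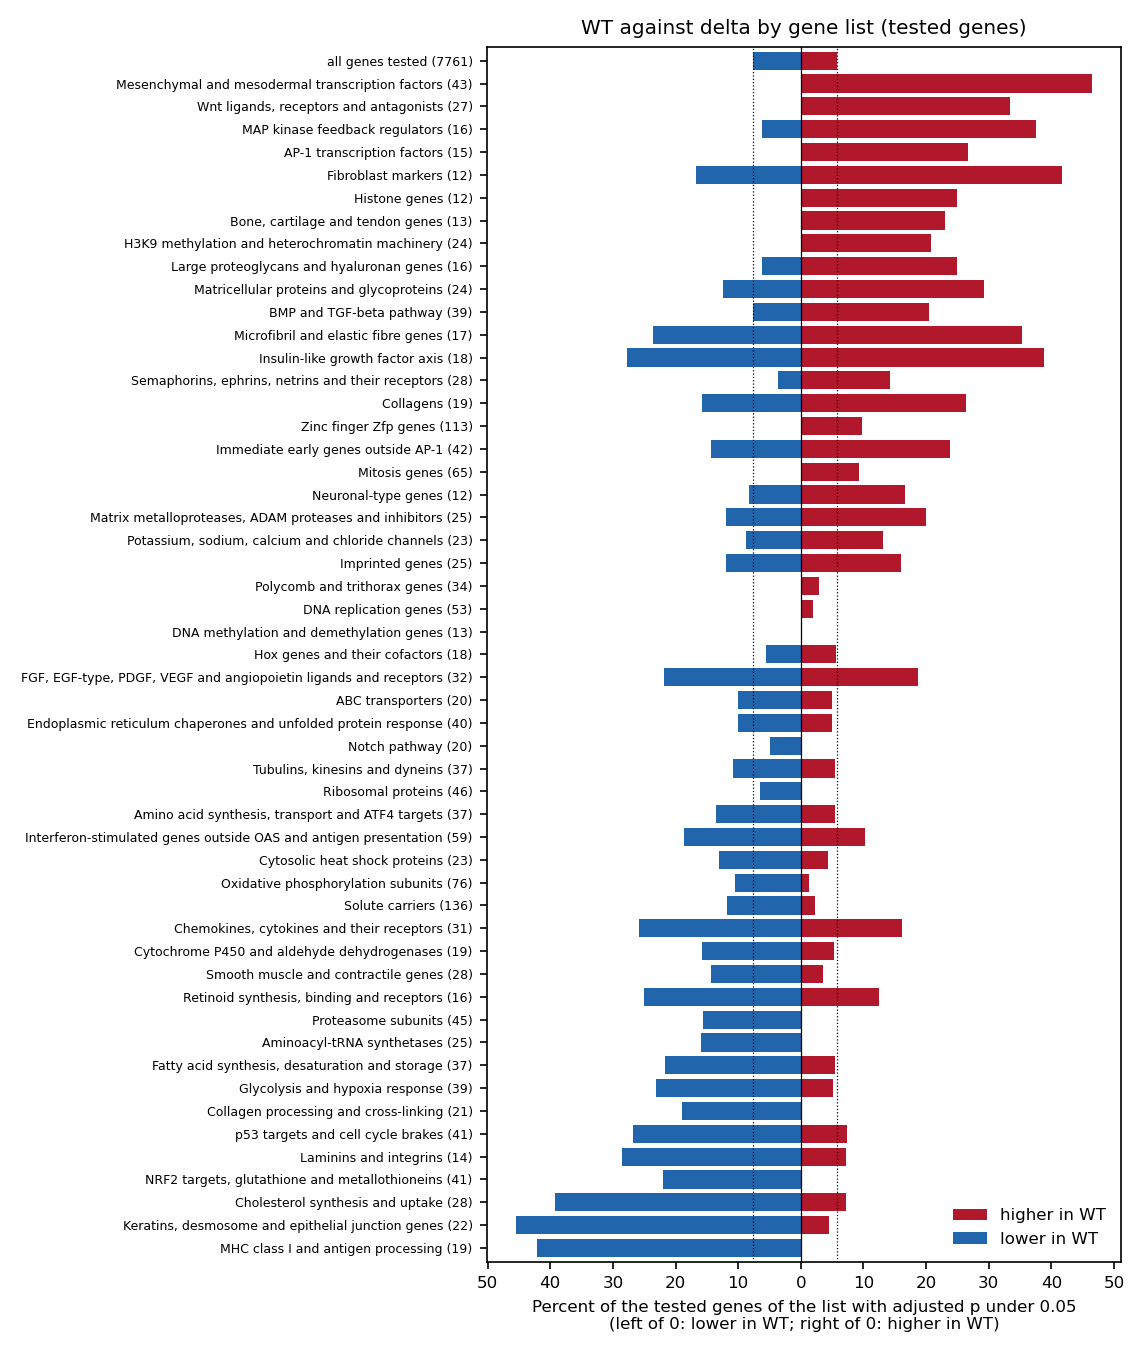
Percent of the tested genes of each list (number in brackets) that were higher in WT (red, right of 0) or lower in WT (blue, left of 0) at adjusted p under 0.05, for lists with at least 12 tested genes, sorted by the balance of the 2. The dotted lines mark all 7761 genes (5.85% higher, 7.69% lower); mesenchymal and mesodermal transcription factors reach 20 of 43 on the right, and keratin and junction genes 10 of 22 on the left.

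For the lists not yet described, as for those above, the 13.5% called among all genes is the share to compare. Oxidative phosphorylation subunits passed in 9 of 76 (11.8%), 8 falls and 1 rise, with 4, 1, 3 and 2 falls and 0, 0, 0 and 1 rises without 1 array and 2 rises with the replicate block. Ribosomal proteins fell in 3 of 46 (6.52%), or 0, 1, 0 and 1 without 1 array, where 1 rise appeared without WT 2 and 2 with the replicate block. Proteasome subunits fell in 7 of 45 (15.6%), or 4, 5, 3 and 4 without 1 array, and of these Psmb8 and Psmb9 lie on chromosome 17. Guidance genes (semaphorins, ephrins and netrins) rose in 4 of 28 and fell in 1, with 4, 2, 3 and 3 rises without 1 array and 2 falls with the replicate block. Tubulin and motor genes rose in 2 of 37 and fell in 4, with 1, 2, 1 and 2 rises and 2, 4, 3 and 2 falls without 1 array and 5 rises with the block. ABC transporters rose in 1 of 20 and fell in 2, with 1, 1, 1 and 2 rises and 1, 2, 2 and 1 falls without 1 array and 2 rises with the block. Cytochrome P450 and aldehyde dehydrogenase genes rose in 1 of 19 and fell in 3 (21.1%), with 1, 2, 2 and 1 falls without 1 array and 2 rises with the block. Neuronal-type genes passed in 3 of 12 tested (25%): L1cam, a neural adhesion molecule, had 620 and 667 in WT, against 192 and 222 in delta, 2.96-fold higher, Stmn2 had 274 and 234 in WT, against 849 and 918 in delta, 3.34-fold lower, and Stmn1 was 1.37-fold higher, in 1 of the 4 reduced fits. Without 1 array 1, 2, 1 and 1 of these genes rose and 1, 1, 1 and 2 fell, and 2 fell with the block. Bone, cartilage and tendon genes rose in 3 of 13 (23.1%), which were Bmp4, Omd and Phex, or 4, 2, 2 and 3 without 1 array and 6 with the replicate block. Of 24 pluripotency and germ cell genes 1 was bright enough to test, and it did not pass.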

How the data were processed

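Total RNA of mouse embryonic fibroblasts was measured on 10 Affymetrix arrays, 2 per group. The authors deposited 1 linear signal intensity per probe set and array, and GCOS 1.4 is named in the submitters' processing notes. The scaling options are not given in the sources used here, but the mean signal after trimming 2% at each end was 498 to 498.7 on all arrays. No scanner files were used. Control probe sets were left out, 16 was added before log2, and probe sets under the 40th percentile of mean signal over the arrays were not tested. limma 3.58.1 in R 4.3.3 was fitted to all 10 arrays (lmFit and eBayes with a trend, 5 residual and 4.69 prior degrees of freedom), and p-values were adjusted over 13576 probe sets (Benjamini-Hochberg). The number of arrays limits the precision. The pipeline was tested on simulated data.

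Probe sets took gene names from the platform annotation: of 22626, 20380 had 1 gene, 691 several and 1555 none. A gene is represented by its brightest probe set with 1 gene. Named genes are the 15 greatest rises and 15 greatest falls with a mean over 16 in both groups and no overlap of the pairs. Ehmt2 was added, and so were the 8 greatest differences without that mean, over both directions together. In each list the called members of smallest p and defining members are named. Genes named for their place on chromosome 17 were chosen after their values were seen. The members and lists were chosen with earlier results of these data known, so that no list is independent support.

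Replicate numbers come from the titles. The difference between the arrays of a pair correlated at 0.229 to 0.509 between groups, all over 0.1, so a fit with the number as a block was added. Promoter sequences are from RefSeq (GRCm38.p6), matched by gene ID for 6344 of 7761 genes. Where a gene had several windows, the first listed was used.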

Additional observations from a re-analysis of the deposited data

How the results depend on the processing

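The alternatives tried were pseudocounts of 4 and 64, no filter or one at the 60th percentile, quantile or median scaling, fits on the 4 arrays compared or without the arrays titled deleted, eBayes without a trend, the mean of a gene's probe sets, the replicate block and leaving out each array. Leaving out chromosome 17 was chosen after seeing the data. With the replicate block 2863 probe sets passed, 1394 higher in WT and 1469 lower. Leaving out 1 array gave 831 to 968 in all, 371 to 484 higher and 422 to 497 lower. The filter at the 60th percentile left 103 higher and 72 lower by over 2-fold. Under the other alternatives the totals were 1148 to 1791, and the median over all genes lay between -0.02 and -0.01. The 39 named genes passed in the same direction under all 15 of these settings where they could be tested (21 of them under the 60th percentile filter). Of 346 other list genes that passed, 160 did so under every alternative and 0 reversed. The replicate block ended 0 of the calls of named or list genes; it added calls, and where it raised a list's count by over 1.5 times that count stands with the list. Smaller increases under it are not given with each list, among them falls of interferon-stimulated genes (16 against 11), glycolysis and hypoxia genes (13 against 9) and fatty acid genes (11 against 8), and rises of mesenchymal factors (23 against 20). Dim genes lie close to the background of the array, where a fold is understated, and 2 arrays a group limit the precision of small differences.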
